A study of Homo sapiens with 24 samples.

Results

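The genes described here are 8 known targets or partners of the androgen receptor in prostate epithelium, namely KLK2, KLK3, TMPRSS2, FKBP5, STEAP2, FOLH1, SLC45A3 and HOXB13. They were chosen by gene name among all non-control spots, and they are 8 of 33407 gene names on the first of 2 array designs, with 13 probes there and 14 on the second design. The androgen receptor is a steroid receptor that enters the nucleus when it binds androgen, and there it binds paired half-sites in DNA called androgen response elements. In prostate epithelium it drives secreted proteases, membrane proteins and its own regulators, and blocking it is the mainstay of treatment in advanced prostate cancer (PCa). Lines that grow without androgen have often lost much of this programme.

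The study deposited 24 two-colour arrays of human cancer cell lines, each with treated RNA in Cy5 and its own control RNA in Cy3, and 1 array for each line and treatment. The first design holds 16 arrays on 2 slides, and the second holds 8 arrays on 1 slide. LNCap, a PCa line from a lymph node metastasis that is known to respond to androgen, was measured once, with miR-145 against a control miRNA. PC3 and DU145, PCa lines from a bone and a brain metastasis that grow without androgen, were given genistein (the labels call its control untreated, the study's methods name vehicle), miR-145, miR-143 or si-GOLM1, and PC3 also miR-23b, miR-24 or miR-27b. The renal cancer lines 786O and A498 were given si-CAV2 or miR-27b, and 786O also CXCL10 for 12 or 24 h against no treatment. FaDu (a pharyngeal squamous carcinoma line) and SAS (a tongue squamous carcinoma line) were given si-LAMB3 or wogonin, FaDu also miR-375 and SAS also miR-29a. Every miRNA array has a control miRNA, every siRNA array a control siRNA and the wogonin arrays DMSO as the control. The labels name ordinary culture media and give no androgen dose and no hormone-free medium.

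Several facts of the series touch the results. No spot was saturated, and from 53.0% to 67.6% of spots in Cy3 were well above background, the scanner software's own test. The targeted gene lay between -4.15 and -2.50 (log2 ratio) on 5 of the 6 siRNA arrays and at -0.89 for LAMB3 in SAS. The PC3 control channels of the miR-23b, miR-24 and miR-27b arrays differed from one another with an SD of 0.238 to 0.250 on the log2 scale, against 0.409 to 0.782 for the 14 other pairs of controls of one line on the first design. They were therefore averaged to 1 sample in every mean ± SD and n of PC3 below, and their 3 treatments have controls that may be shared. The fits across all genes kept all 16 arrays. With these controls averaged to 1, counts of calls are given for the baseline comparisons, and values for PC3 against DU145. The treated channel of the DU145 miR-145 array stood apart. Of 15 probes that were bright in the treated channel of LNCap (log2 level of 13 or more) and not well above background in the other 3 DU145 channels of this design, 14 were well above background in that channel. They lay a median of 8.88 below the LNCap level on the log2 scale (range 5.81 to 9.77), and probes of FOLH1, HOXB13 and KLK3 were among them. Whether LNCap RNA reached this channel was not tested, and the tests that rest on it are given with and without it.

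All 6 luminal markers (KLK3, KLK2, ACPP, HOXB13, KRT8 and KRT18) were well above background in LNCap, against 3 or 4 in PC3, 4 in DU145 and 786O, 3 in A498, 3 or 4 in SAS and 4 or 5 in FaDu, so their number does not set PC3 and DU145 apart from the other tissues. KLK3, KLK2 and HOXB13 are among the 8 genes themselves, and KRT8 was lower in LNCap, at -1.27 ± 0.24 (log2 difference from the other lines, SE, limma adjusted p = 0.0026). Squamous and basal markers were well above background for 6 of 6 genes in FaDu and for 5 or 6 in SAS, and for 1 of 6 in LNCap. Renal markers were found for 5 of 5 genes in A498 and 4 in 786O, and for 1 in LNCap.

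KLK3 (prostate-specific antigen) and KLK2 are neighbouring secreted serine proteases of chromosome 19, and their promoters carry the best known androgen response elements. RefSeq promoters (GRCh38.p14, each 300 bases long) were at hand for 5 of the 8 genes, KLK2, KLK3, FKBP5, STEAP2 and SLC45A3. The 2 kallikrein promoters aligned with 84.2% identical bases over 291 aligned positions. The stretches from -200 to -81 relative to the start site are shown because they hold the same element, which the capitals mark (KLK3 at chr19:50854715-50854834 and KLK2 at chr19:50873239-50873358, forward strand).
KLK3: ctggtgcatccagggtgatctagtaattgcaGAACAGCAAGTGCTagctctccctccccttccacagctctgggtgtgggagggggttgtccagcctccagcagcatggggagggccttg
KLK2: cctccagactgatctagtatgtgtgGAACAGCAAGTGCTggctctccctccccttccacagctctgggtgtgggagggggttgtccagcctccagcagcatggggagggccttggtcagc
The letters GAACA and GTNCT with any 4 bases between them, searched on both strands, began at position -169 in KLK3 and -175 in KLK2. Of 35116 promoters of this length, 87 (0.248%) held them, and those of FKBP5, STEAP2 and SLC45A3 did not. The half-site AGAACA, which overlaps the longer element in KLK3, was in 14.8% of all promoters, among them 1 of 2 listed for FKBP5. These are matches of letters in a short window.

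The probe that represents each gene is the one with the highest mean signal over all arrays. For KLK2 it lies across an exon junction, at chr19:51380007-51380179 of hg19, where the genomic span is 173 bases for a probe of 60. Its sequence is shown because 1 of the 2 KLK2 probes, and not the other, gave signal in lines other than LNCap.
KLK2 A_24_P5750: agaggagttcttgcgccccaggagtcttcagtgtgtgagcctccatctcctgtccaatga
The KLK3 probes lie at chr19:51359882-51359941 and chr19:51363961-51364020 of hg19 on the forward strand and were designed on different reference transcripts. The probes of TMPRSS2 (chr21:42836904-42836963), FKBP5 (chr6:35541928-35541987), HOXB13 (chr17:46802144-46802203), SLC45A3 (chr1:205627037-205627096) and FOLH1 (chr11:49168360-49168419) are on the reverse strand, and that of STEAP2 (chr7:89866537-89866596) on the forward strand. FOLH1 has a near-identical copy, FOLH1B, and probes may not separate them.

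To ask how far the programme differs between lines at baseline, levels of the control channel were compared on the 16 arrays of the first design. The level is the normalised log2 Cy3 signal. Of the 8 genes, 7 were higher in LNCap than in the mean of the 6 other lines and 1, FKBP5, did not pass the test, where 12.8% of all 26090 genes tested were higher and 11% lower (limma, adjusted p under 0.05). With the 3 PC3 controls averaged to 1, the same count of 7 was higher. A fitted difference against lines where a probe was not well above background is not a measured size, and lower bounds are given in its place where a whole line was dim. LNCap is 1 array, which the test assumes to vary like arrays of the other lines. The SEs and p-values of the LNCap comparisons are those of all 16 arrays. With the 3 PC3 controls averaged to 1, most adjusted p-values of the 8 genes were larger. SLC45A3, for example, then stood at 3.82 ± 0.69 (SE) against the other lines. In bulk RNA, more RNA per cell and more cells with the RNA cannot be told apart.

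KLK3 showed the widest gap between LNCap and every other array. On the probe A_33_P3215843 its level was 16.67 in LNCap, and on the 15 other arrays it ranged from 1.67 through a median of 2.14 to 2.38, never well above background. LNCap was at least 7854-fold higher than SAS and at least 14742-fold higher than DU145, the lowest and highest of the bounds against single lines. This probe entered the fit through the LNCap array alone, so no p-value is given for it. The representative probe, A_33_P3215838, had a level of 11.60 in LNCap and from 2.74 to 4.04 elsewhere, and was well above background only in the 2 DU145 controls. LNCap was 236-fold above the DU145 mean and at least 189-fold above 786O, the lowest bound among the lines where this probe was dim (limma adjusted p = 4.45e-08 against all). Both probes separated LNCap from all the other arrays without overlap.

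KLK2 behaved alike on its 2 probes. The exon junction probe read 11.19 in LNCap and from 3.95 to 5.42 on the other arrays, of which 10 of 15 were well above background. The fitted difference was 6.33 ± 0.51 (SE, adjusted p = 3.61e-06). The other KLK2 probe, at chr19:51383223-51383282, read 7.46 in LNCap and was not well above background on any other array, which puts LNCap at least 13.3-fold above SAS and at least 25.0-fold above DU145, the lowest and highest bounds against single lines.

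FOLH1 encodes prostate-specific membrane antigen, a surface peptidase used as an imaging and radioligand target. Its level was 16.21 in LNCap. FaDu followed with 6.63 ± 0.71 (SD, n = 3) and PC3 with 6.48 ± 2.25 (SD, n = 3), whose ranges overlapped. DU145, 786O, A498 and SAS had no array with FOLH1 well above background, and against them LNCap was at least 10770-fold, 8151-fold, 7902-fold and 5738-fold higher. LNCap was 765-fold above the FaDu mean, and the contrast with all 6 lines passed the test (limma adjusted p = 3.86e-05). PC3 controls read 8.87, 8.89 and 8.97 on the second slide and 6.04 and 4.49 on the first, the last not well above background, and no array of the second design had it above background. Slide and culture of PC3 cannot be told apart here. The other FOLH1 probe, A_33_P3332337, read 12.08 in LNCap. On the 15 other arrays it ranged from 1.74 to 4.10 and was never well above background. Signal of FOLH1 in FaDu and PC3 thus rests on the representative probe alone.

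The other membrane proteins were also highest in LNCap, but with signal in most lines. STEAP2, a metalloreductase of the cell membrane, had a level of 14.20 in LNCap, 9.61 ± 0.25 in PC3 (SD, n = 3), 9.44 ± 0.70 in SAS (SD, n = 3) and 8.95 ± 0.85 in DU145 (SD, n = 2). These 3 lines overlapped one another, and A498 (6.94), 786O (6.46) and FaDu (4.82 ± 0.48, SD, n = 3) lay lower. LNCap minus the others was 6.48 ± 0.50 (SE, adjusted p = 2.58e-06). Its 2 other probes pointed the same way, at 6.74 ± 0.54 (SE, adjusted p = 3.2e-06) and, for a dim one, 3.57 ± 0.95 (SE, adjusted p = 0.017).

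SLC45A3, or prostein, is a solute carrier and a frequent fusion partner in PCa. It was well above background on all 16 arrays, at 13.08 in LNCap, 10.66 ± 0.74 in PC3 (SD, n = 3), 9.69 in 786O, 9.21 ± 0.86 in SAS (SD, n = 3), 8.80 in A498, 8.69 ± 0.09 in DU145 (SD, n = 2) and 8.52 ± 0.80 in FaDu (SD, n = 3). The highest other array, a PC3 control, was at 11.38, and the fitted difference was 3.81 ± 0.63 (SE, adjusted p = 0.000945). From 786O down, most neighbours in this order overlapped.

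TMPRSS2, a membrane serine protease whose androgen-driven promoter is fused to ERG in many prostate cancers, had a level of 12.23 in LNCap. PC3 came next at 8.08 ± 1.57 (SD, n = 3), above all arrays of A498, FaDu, 786O, SAS and DU145 except 1 of FaDu (6.56), which exceeded the lowest PC3 control (6.38). DU145 was lowest at 4.24 ± 0.13 (SD, n = 2). The difference of LNCap from the other lines was 6.80 ± 0.86 (SE, adjusted p = 0.000135).

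HOXB13, a homeobox factor of the prostate and hindgut that binds together with the receptor, did not separate LNCap from PC3. Its level was 14.54 in LNCap and 12.67, 14.39, 14.50, 14.52 and 15.69 on the 5 PC3 arrays. FaDu had 8.69 ± 0.34 (SD, n = 3) and 786O 4.93, and no control of DU145, A498 or SAS was well above background. LNCap was 57.6-fold above the FaDu mean and at least 1798-fold above SAS, 2475-fold above A498 and 3374-fold above DU145. The call against the mean of 6 lines (limma adjusted p = 3.46e-06) does not hold for PC3 by itself. The same order held on the second design, where PC3 read 10.54 ± 0.28 (SD, n = 2) and DU145 was not well above background.

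FKBP5, a co-chaperone of steroid receptors that androgen and glucocorticoid both induce, had another order. DU145 was highest at 9.08 ± 0.26 (SD, n = 2), then LNCap (7.74), 786O (7.56), A498 (7.06), FaDu (6.52 ± 0.46, SD, n = 3), SAS (6.47 ± 0.45, SD, n = 3) and PC3 (5.84 ± 0.93, SD, n = 3). The last 3 overlapped. LNCap differed from the mean of the others by 0.72 ± 0.65 (SE, adjusted p = 0.497).

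**Figure D1:**
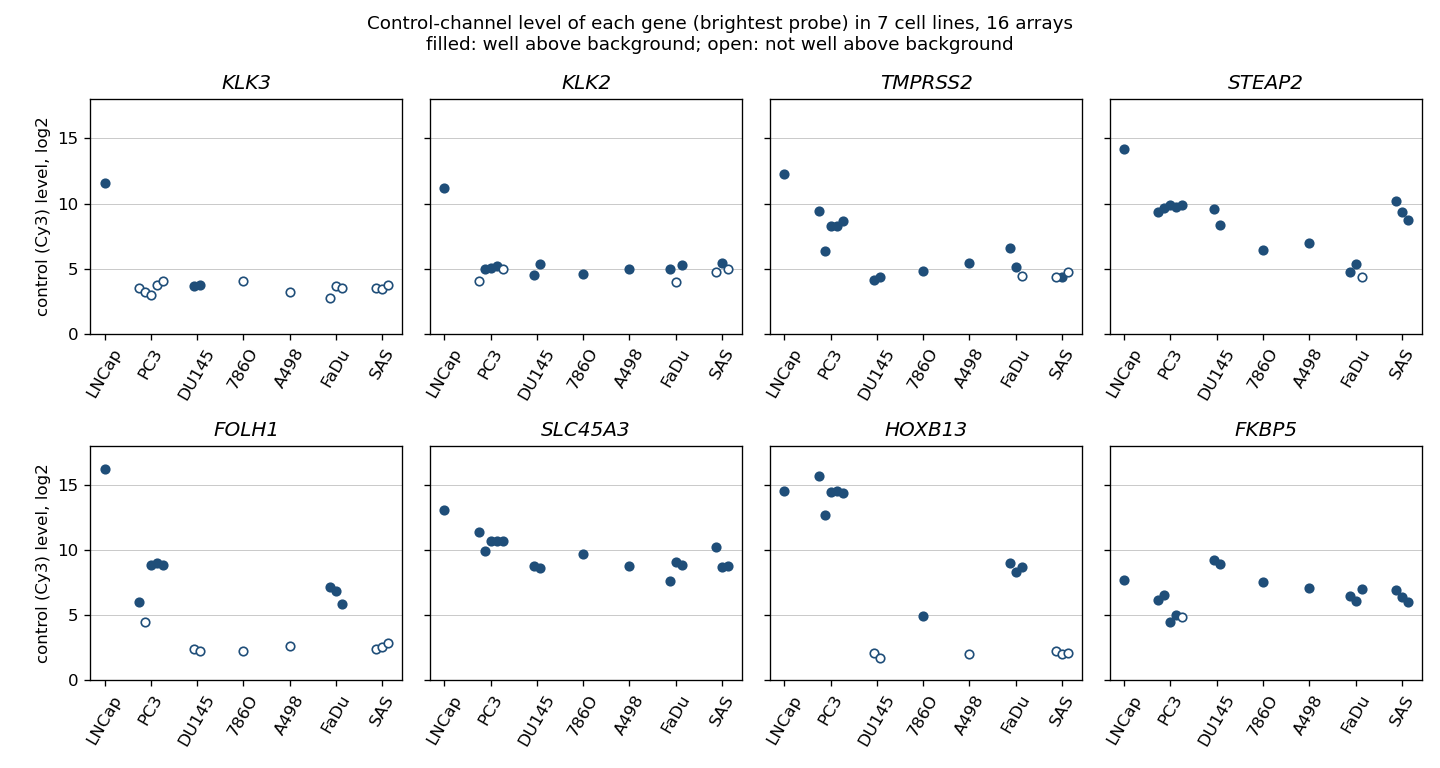
Control-channel (Cy3) level on the log2 scale, 1 point per array, for the representative probe of each gene in 7 lines (16 arrays of the first design). Filled points are well above background and open points are not. LNCap is the highest line for 6 of the 8 genes without overlap, HOXB13 is as high in PC3, and FKBP5 is highest in DU145.

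Where the spread was taken over the 15 other arrays as 1 group, so that differences between those lines count as error, 3 of the 8 genes passed and TMPRSS2, STEAP2, SLC45A3 and HOXB13 did not (HOXB13 6.87 ± 5.31, SE, adjusted p = 0.693).

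Within PCa lines, LNCap was higher than the mean of PC3 and DU145 for the same 7 genes, where 11.8% of all genes were higher and 10.4% lower. For HOXB13, the LNCap level of 14.54 lay within the PC3 range of 12.67 to 15.69. Its call therefore rests on DU145, where it was not well above background. TMPRSS2, STEAP2 and SLC45A3 were well above background on every array of the 3 lines. The differences were 6.01 ± 0.90 (SE, adjusted p = 0.000463) for TMPRSS2, 4.88 ± 0.52 (SE, adjusted p = 3.58e-05) for STEAP2 and 3.39 ± 0.65 (SE, adjusted p = 0.0028) for SLC45A3, and FKBP5 stood at 0.49 ± 0.67 (SE, adjusted p = 0.697). On the slide that holds the LNCap array alone, TMPRSS2 did not pass (6.15, adjusted p = 0.0547).

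PC3 and DU145, which both have several control arrays, differed from each other in 5 of the 8 genes. Of these 4 were higher in PC3 and 1 lower, against 13.7% and 14.8% of all genes. HOXB13 was at least 2812-fold higher in PC3 (limma adjusted p = 3.75e-08). FOLH1 was higher in PC3 (limma adjusted p = 0.0036), its mean being 12.6-fold above the lowest DU145 signal well above background. That mean includes a PC3 control (4.49) that was not well above background. Neither gene was well above background in DU145. On the second design FOLH1 was not well above background in either line. The other FOLH1 probe was not well above background in either line. TMPRSS2 was 3.97 ± 0.69 higher (SE, adjusted p = 0.0012) and SLC45A3 1.98 ± 0.50 (SE, adjusted p = 0.0116). FKBP5 was lower in PC3, at -3.66 ± 0.52 (SE, adjusted p = 0.000283). With the 3 near-identical PC3 controls averaged to 1, all 5 calls stood, at 3.84 ± 0.81 (SE, adjusted p = 0.00866) for TMPRSS2, 1.97 ± 0.60 (SE, adjusted p = 0.0456) for SLC45A3 and -3.24 ± 0.51 (SE, adjusted p = 0.00172) for FKBP5, with adjusted p = 2.17e-06 for HOXB13 and 0.0159 for FOLH1. KLK2, KLK3 and STEAP2 did not pass, and both kallikreins lay near or below background in the 2 lines. The SLC45A3 call was lost when either DU145 array was left out (2.05 and 1.92). It was also lost with the slide as a block (1.67, limma adjusted p = 0.0554) and in the Cy5 channel (1.48, adjusted p = 0.0838). FOLH1 was lost in the Cy5 channel (1.48, adjusted p = 0.428) and TMPRSS2 on the second design (2.45, adjusted p = 0.0534). STEAP2 passed on the second design (1.08, adjusted p = 0.0454).

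Other androgen-regulated genes went partly the same way. Of 30 listed, 16 were higher in LNCap than in the other lines, 1 was lower and 13 did not pass, with a median fitted difference of 2.12, against 12.8% higher, 11% lower and a median of 0.00 for all genes. The largest were ACPP (prostatic acid phosphatase) at 8.70 ± 0.62, KLK4 at 6.33 ± 0.43, ZBTB16 at 4.99 ± 0.34 and STEAP1 at 4.78 ± 0.86 (log2 difference ± SE, limma adjusted p of 0.0017 or less). ACPP was well above background on 5 of the 15 other arrays and KLK4 on 4, so their sizes are fitted against mostly dim values. HERC3 and KLK15, counted among the 16 higher genes, were well above background on none of the 15. They entered the fit through the LNCap array alone, so their calls add no support. ELL2, an elongation factor named after its value was seen, was the one lower, at -1.22 ± 0.41 (SE, adjusted p = 0.0483). UGT2B15, which inactivates androgens by glucuronidation and is known to be repressed by the hormone, was higher (limma adjusted p = 3.78e-05) and well above background on 3 of the 15 other arrays.

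**Figure D2:**
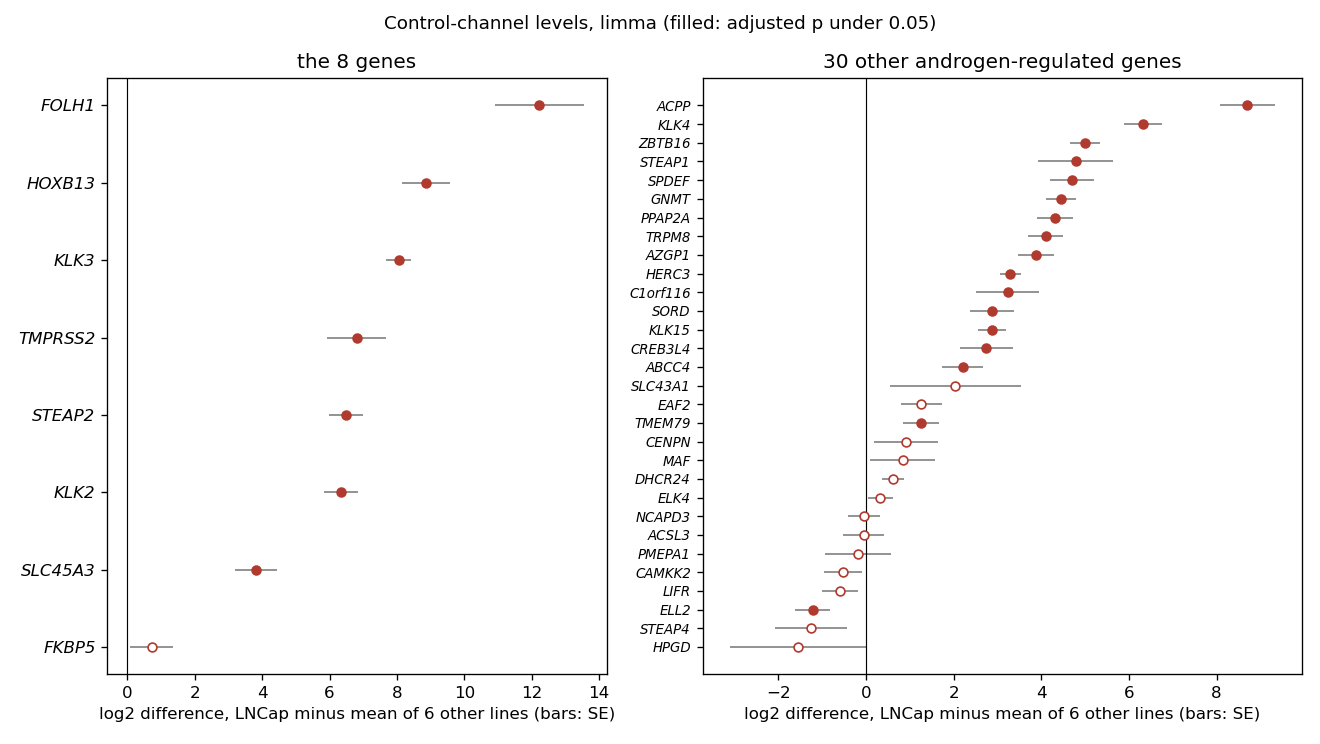
Difference of the control-channel level between LNCap and the mean of 6 other lines, on the log2 scale with SE, for the 8 genes (left) and 30 other androgen-regulated genes (right). Filled points passed the adjusted limit, 7 of 8 on the left and 17 of 30 on the right, of which ELL2 alone is negative. Sizes set against dim lines, as for FOLH1, KLK3 and HOXB13, are fitted values only. HERC3 and KLK15 entered the fit through the LNCap array alone.

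Among 12 cofactors of the receptor, 4 were higher, 2 lower and 6 did not pass, against 12.8% and 11% of all genes. FOXA1 and GATA2, pioneer factors that open chromatin for the receptor, were higher by 4.80 ± 0.67 (SE, adjusted p = 0.000288) and 4.35 ± 0.33 (SE, adjusted p = 2.4e-06), the coactivator NCOA1 was higher by 1.11 ± 0.29 (SE, adjusted p = 0.0143), and the coactivator TGFB1I1 was lower, at -3.50 ± 0.37 (SE, adjusted p = 3.08e-05). FOXA1 did not pass against PC3 and DU145 alone (1.77 ± 0.70, SE, adjusted p = 0.0953). Of 10 enzymes of androgen metabolism, SRD5A3 (2.38 ± 0.72, SE, adjusted p = 0.0316) and HSD17B4 (1.91 ± 0.44, SE, adjusted p = 0.0076) were higher and 8 did not pass, beside the same shares of all genes. NR3C1, the glucocorticoid receptor, was lower in LNCap by a wide margin, at -7.92 ± 0.33 (SE, adjusted p = 1.71e-08). NR3C2, the mineralocorticoid receptor, was higher at 2.46 ± 0.57 (SE, adjusted p = 0.008) and well above background on 7 of the 15 other arrays. NR3C2 (0.70 ± 0.59, SE) and SRD5A3 (1.92 ± 0.74, SE) did not pass against PC3 and DU145 alone. Of 7 genes that glucocorticoids are known to induce, FKBP5 among them, 2 were higher, 1 was lower and 4 did not pass. Over all genes, 12.8% were higher and 11% lower. ZBTB16 and KLF9 (4.90 ± 0.86, SE, adjusted p = 0.0014) were higher and SGK1 lower (-2.71 ± 0.83, SE, adjusted p = 0.0335). SGK1 did not pass against PC3 and DU145 alone (-1.53 ± 0.86, SE).

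The level profile of KLK3 over the 16 control channels was most like those of PLA2G2A (r = 0.988), SYT4 (r = 0.985) and KLHL1 (r = 0.984), with 1 unnamed probe and 1 lincRNA locus among the 5 highest of 26087 genes. KLK2 was the 94th (r = 0.946). HOXB13 was most like ZNF417 (0.961), ZNF564 (0.959), CHID1 (0.956), ZFHX2 (0.944) and NAP1L3 (0.943), and TMPRSS2 was its nearest of the 8 genes at 0.844. These Pearson correlations describe 7 lines, several with more than 1 array, and the KLK3 value rests on the single LNCap array.

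miR-145, a tumour-suppressor miRNA that is low in many carcinomas, was the treatment given to LNCap. RefSeq lists its 5′ arm at chr5:149430661-149430683 (GRCh38.p14, forward strand), shown because it was the agent, with the seed (bases 2 to 8) in capitals. The labels name no arm.
hsa-miR-145-5p: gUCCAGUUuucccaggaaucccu
On the LNCap array all but 1 of the 8 genes had a log2 ratio below 0, with a median of -0.37. The median of all measured genes was -0.10, so most of them were below 0 as well. Their share was not counted, and the signs of the 8 genes are not set against it. TMPRSS2 was at -0.52, KLK2 and SLC45A3 at -0.43, FOLH1 at -0.40, STEAP2 at -0.35, KLK3 at -0.25, HOXB13 at -0.24 and FKBP5 at 0.16. The software's technical error of these ratios was 0.205 to 0.210. TMPRSS2 was the one gene past -0.5, where 13% of all measured genes were past it. The other probes read -0.36 for KLK3, -0.33 for FOLH1, -0.74 for KLK2 and -0.59 and -0.95 for STEAP2. There is 1 array, so none of these values has a replicate.

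The same treatment gave other values in PC3 and DU145. In PC3, FOLH1 (1.74), KLK3 (1.43) and FKBP5 (0.92) were past 0.5 and HOXB13 (-1.19) and SLC45A3 (-0.50) past -0.5, where 17.7% and 17.5% of genes were past these limits. In DU145, FOLH1 (4.90), HOXB13 (3.46), TMPRSS2 (0.74) and KLK3 (0.56) were past 0.5 and no gene past -0.5, where 8.65% and 9.01% of all genes were. The KLK3 probe A_33_P3215843 read 5.91 ± 0.62 (software error) in DU145. The values of FOLH1, HOXB13 and that KLK3 probe are those of the DU145 channel that stood apart, and their control channel was not well above background. In PC3 the controls of FOLH1 and KLK3 were not well above background either.

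The difference between LNCap and the mean of PC3 and DU145 under miR-145 was tested directly. None of the 8 genes passed (limma, adjusted p under 0.05), where 0.273% of 18672 genes were higher in LNCap and 0.0214% lower. FOLH1 differed by -3.73 ± 1.25 (SE, adjusted p = 0.581) and KLK3 by -1.25 ± 0.43 (SE, adjusted p = 0.603). Without the DU145 array FOLH1 stood at -2.14, KLK3 at -1.68 and HOXB13 went from -1.38 to 0.94. With 1 array per line and SEs of this size, a difference as small as the LNCap ratios was not detectable.

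**Figure D3:**
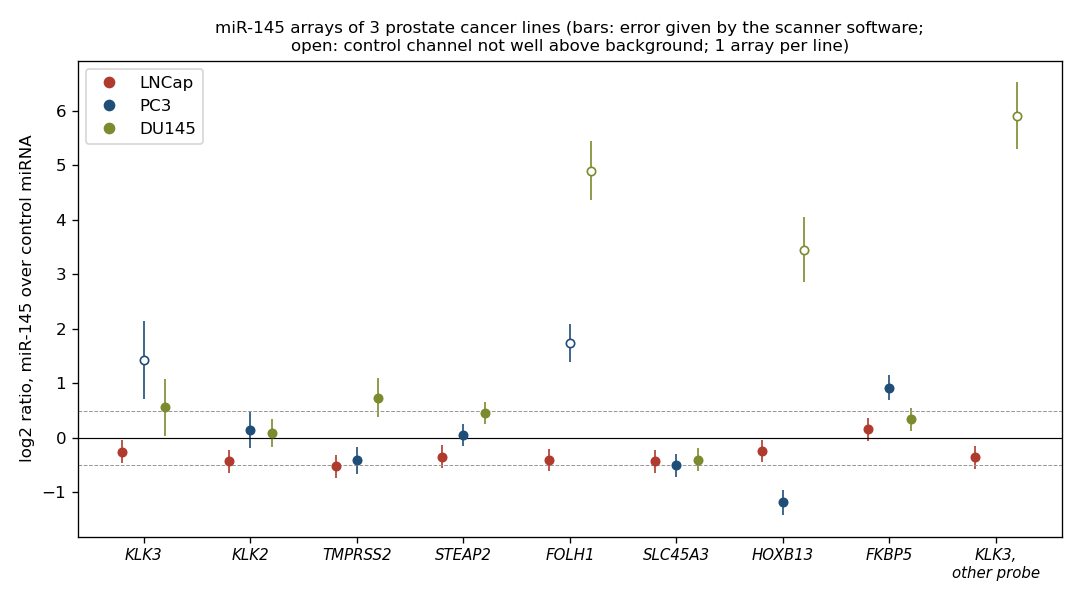
Log2 ratio of miR-145 over control miRNA in LNCap, PC3 and DU145 for the 8 genes and the other KLK3 probe, with the error the software gives for 1 array. Dashed lines mark 0.5 and -0.5, open points have a control channel not well above background, and the other KLK3 probe has no point for PC3, where both channels were dim. LNCap lies between -0.52 and 0.16, and the highest values are those of DU145 for FOLH1, HOXB13 and the other KLK3 probe.

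The other treatments were read array by array, with a log2 ratio past 0.5 in size as the limit and no replicate. A gene was counted on an array only where its probe was well above background in at least 1 channel. Where the other channel was dim, the ratio is not a measured size. The treated channel was dim for FOLH1 with genistein in PC3 and for STEAP2 with miR-375 and si-LAMB3 in FaDu. The control was dim for most KLK3 and several KLK2 values past 0.5. It was also dim for TMPRSS2 with wogonin in FaDu, miR-29a in SAS and si-GOLM1 in DU145, and for FKBP5 with miR-27b in PC3. Genistein in PC3 went with HOXB13 at -2.37 ± 0.30, FOLH1 at -2.27 ± 0.46, TMPRSS2 at -1.44 ± 0.24, SLC45A3 at -0.93 ± 0.22, STEAP2 at 1.38 ± 0.24 and KLK2 at 0.58 ± 0.55 (log2 ratio ± software error). That made 2 genes past 0.5 and 4 past -0.5, where 24.6% and 18% of all genes were. In DU145 genistein went with TMPRSS2 at 0.86 and KLK3 at 0.51, and FKBP5 at -0.51, where 17.5% and 19.1% were past the limits. HOXB13 and FOLH1 had no signal in that line.

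The 3 PC3 arrays with near-identical controls gave, for FOLH1, -1.07 with miR-23b, -2.69 with miR-24 and -1.90 with miR-27b. STEAP2 followed at -0.63, -1.86 and -1.10. FKBP5 was at 0.30, 0.95 and 1.25, and TMPRSS2 at 0.70, 0.18 and 0.74. HOXB13 read 0.07, -1.14 and 0.64, and SLC45A3 -0.23, -1.47 and -0.21. KLK3 was at 1.61, 1.26 and 0.64. With miR-24, 4 of the 8 genes were past -0.5, where 22.9% of all genes were, and 2 past 0.5, where 28.6% were. With miR-23b there were 2 each way (13.8% lower and 18.6% higher over all genes), and with miR-27b 2 lower and 4 higher (15.1% and 20.9%).

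In the squamous lines SLC45A3 had the highest ratio, 2.49 ± 0.31 (software error) with miR-375 in FaDu, from a control level of 7.61 to 10.10. On that array neither channel had KLK3 well above background, FKBP5 was at 0.78, and TMPRSS2 (-1.39), STEAP2 (-1.27) and FOLH1 (-0.95) were past -0.5, where 25.1% of genes were higher and 24.4% lower. With si-LAMB3 in FaDu, STEAP2 (-2.15), FOLH1 (-0.85) and SLC45A3 (-0.77) were past -0.5 and KLK3 (1.32), KLK2 (1.25) and HOXB13 (0.52) past 0.5, where 13.2% and 17.4% were. In SAS, KLK3 (1.05) was the one counted gene past the limit with si-LAMB3 (21.1% higher over all genes). KLK3 (1.11), STEAP2 (0.90), FKBP5 (0.84) and KLK2 (0.54) were past it with wogonin (23.3%). KLK3 (1.12), KLK2 (0.94), FKBP5 (0.82) and TMPRSS2 (0.73) were past 0.5 with miR-29a (17.9%), and SLC45A3 (-0.58) past -0.5 (11.8%). Wogonin in FaDu had KLK3 (1.14) and TMPRSS2 (0.71) past 0.5 and no counted gene past -0.5 (19% and 9.3%). STEAP2 read -0.58 there, with neither channel well above background.

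Renal lines and the second design showed few such values. With si-CAV2, KLK3 (1.35) was past 0.5 in A498 (6.26% of all genes), and KLK2 (0.69) and KLK3 (0.53) in 786O (5.75% higher and 4.91% lower over all genes). On the 8 arrays of the second design, KLK3 (0.87) and KLK2 (0.83) were past 0.5 with miR-143 in DU145 (8.64%), KLK3 (0.76) with miR-143 in PC3 (6.36%), where SLC45A3 was at -0.76 (6.17% lower). TMPRSS2 was at 0.79 with si-GOLM1 in DU145 (4%), FKBP5 at 0.75 with si-GOLM1 in PC3 (10.2%), and TMPRSS2 at 0.59 with miR-27b in A498 (7.03%). With CXCL10 for 24 h in 786O, TMPRSS2 was at 1.49 and KLK2 at 0.51 (5.86%), the first from a control level that was not well above background. No gene of the 8 that was well above background in either channel was past a limit with miR-27b or with CXCL10 for 12 h in 786O.

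**Figure D4:**
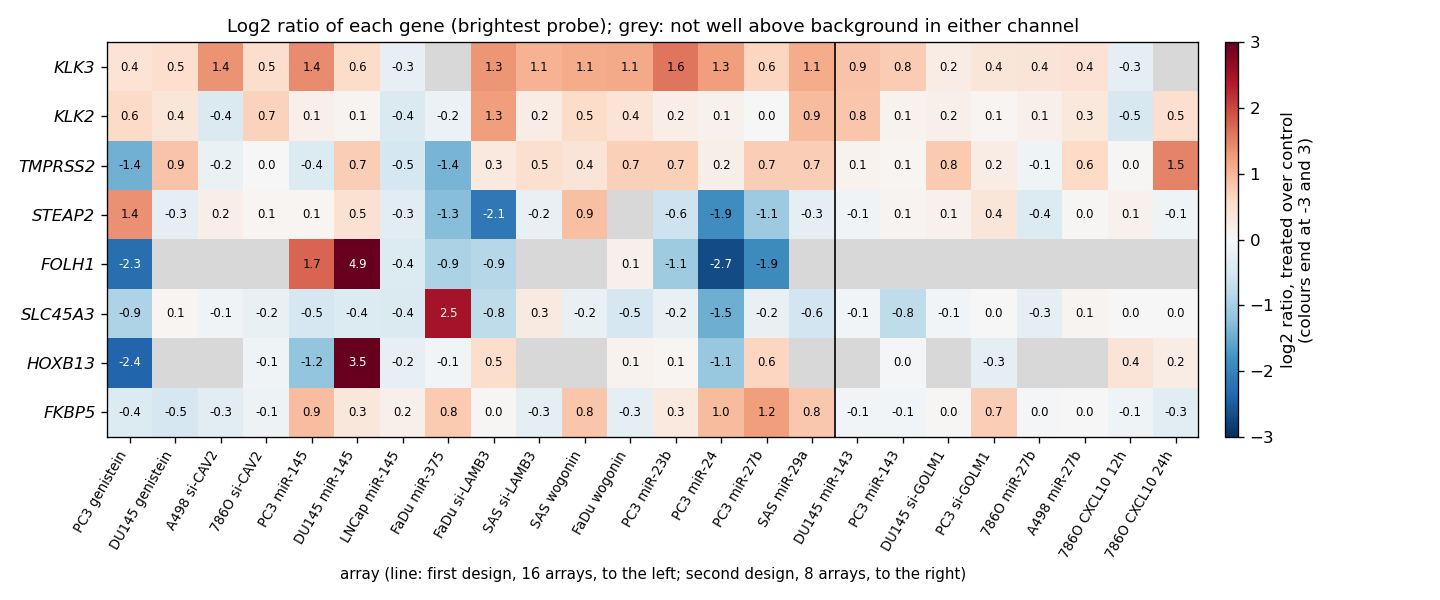
Log2 ratio of treated over control RNA for the representative probe of each gene (rows) on all 24 arrays (columns), with the value in each cell and grey where neither channel was well above background. The KLK3 row is positive in every coloured cell of the first design except LNCap, and the lowest values are those of FOLH1 with miR-24 and HOXB13 with genistein, both in PC3.

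The KLK3 ratio was above 0 on all 15 arrays of the first design that hold other lines, from 0.41 to 1.61 (on the FaDu miR-375 array neither channel was well above background), and on 7 of 8 of the second design. KLK2 was above 0 on 13 of 15 and 7 of 8. Both genes were near background in those lines. Treated RNA was always in Cy5, so a dye effect and a treatment effect cannot be told apart for these dim probes.

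For 9 treatments with at least 2 arrays, the mean ratio over lines or times was tested against 0. From 5 to 8 of the genes could be tested under each, and none passed (limma). At an unadjusted p under 0.05 there were 2 with si-LAMB3 and with miR-143, 1 with miR-145, si-CAV2, wogonin, si-GOLM1 and miR-27b in the renal lines, and 0 with genistein and CXCL10. Without the DU145 array no gene of the 8 was under it with miR-145, FKBP5 being lowest (limma unadjusted p = 0.0907). Of all genes, 5031 of 19985 were under this unadjusted limit with si-LAMB3, 3138 of 19654 with miR-143 and 4248 of 18672 with miR-145. There were 981 of 20058 with si-CAV2, 4308 of 20080 with wogonin and 3622 of 18973 with si-GOLM1. Last, 2857 of 19974 were under it with that miR-27b, 5635 of 20591 with genistein and 1646 of 19561 with CXCL10. At the adjusted limit, 4.62% of all genes were higher and 4.88% lower with genistein, and 3.3% and 3.28% with miR-145. They were 3.48% and 4.02% with si-LAMB3, and 2.4% and 1.09% with wogonin. The shares were lower for the other treatments, at 0% higher and 0.13% lower with si-CAV2, 0.046% and 0.102% with CXCL10, 0.0611% and 0.112% with miR-143, 0.175% and 0.436% with miR-27b, and 0.121% and 0.242% with si-GOLM1. KLK3 came nearest, at 1.18 ± 0.34 (SE, adjusted p = 0.0717) with si-LAMB3 and 0.81 ± 0.14 (SE, adjusted p = 0.0856) with miR-143. FOLH1 stood at 2.08 ± 0.81 (SE, adjusted p = 0.164) with miR-145, and HOXB13 at 0.68 ± 0.77 (SE, adjusted p = 0.652). Without the DU145 array they were at 0.67 ± 0.59 (SE, adjusted p = 0.576) and -0.71 ± 0.52 (SE, adjusted p = 0.486). With genistein TMPRSS2 was at -0.29 ± 0.48 (SE, adjusted p = 0.735), from -1.44 in PC3 and 0.86 in DU145.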

How the data were processed

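Total RNA of treated cells (Cy5) and control cells (Cy3) was hybridised together on Agilent SurePrint arrays. The authors deposited 1 scanner file per array, made with Feature Extraction 10.7.3.1 from Agilent. Its intensity values are raw means, local background and processed signals, corrected for background and dye by the authors' software. The deposited log10 ratio of each spot was rescaled to log2. The deposited series matrix held the same ratios.

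Control and flagged spots were left out and spots of one probe averaged. Baseline levels are log2 Cy3 signals after Aquantile normalisation of the processed signals within each array design. Limma 3.58.1 in R 4.3.3 fitted 1 mean per line over all 16 arrays of the first design to 32952 probes well above background on at least 1 array, or 1 mean per treatment to the ratios, with Benjamini-Hochberg adjustment at 0.05 over all probes. Single arrays were read by size, past 0.5. "At least" folds set the LNCap level against the higher of each dim array's own value and its lowest signal well above background. Separate cultures are not named in the labels, so the p-values measure only the spread between arrays, and the number of arrays limits precision.

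All 8 genes are named, of each other list at most the 4 largest called differences, and the 5 profiles most like KLK3 and HOXB13. The genes and lists were chosen with earlier results of these data known. Tested on simulated data, the baseline fit called 26 of 50 probes changed by 2 and 43 of 50 changed by 4 (log2). The receptor's own transcript is not reported here. Alternatives changed background correction, scaling, filter, slide, channel, centring, limit and arrays used.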

Additional observations from a re-analysis of the deposited data

Results flagged for a closer look

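For 3 results the lines moved past 0.5 in opposite directions under one treatment, each with 1 array per line, so the difference itself was not tested beyond the spread between arrays. HOXB13 under miR-145 was at 3.46 in DU145 and -1.19 in PC3, a difference of 4.64 on the log2 scale, and the DU145 value is from the channel that stood apart. TMPRSS2 under genistein was at 0.86 in DU145 and -1.44 in PC3, a difference of 2.30. TMPRSS2 under miR-145 was at 0.74 in DU145 and -0.52 in LNCap, a difference of 1.26. The TMPRSS2 level of DU145 was low, 4.14 and 4.33 in its controls.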

How the results depend on the processing

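With the 3 near-identical PC3 controls averaged to 1, the counts of the 8 genes called were the same in all 3 baseline comparisons. The 7 genes higher in LNCap were also higher without each of the 15 other arrays in turn, and LNCap itself cannot be left out. Against the other lines, 6215 genes were called, 2758 on the slide with LNCap only, 3978 from the Cy5 channel and 1210 against the mean over the other arrays, where 3 of the 8 genes were higher (TMPRSS2 adjusted p = 0.0568, STEAP2 0.112, SLC45A3 0.0648). Against PC3 and DU145, 5791 genes were called, 2428 on that slide only and 3689 from Cy5. For PC3 against DU145, 7431 genes were called, 4618 from Cy5, with 2 of the 8 genes higher in place of 4 (FOLH1 1.48, adjusted p = 0.428), and 4018 on the other design. KLK3 turned to 0.32 in Cy5, and KLK2 ranged from -0.53 to 0.32 when single arrays were left out. In the miR-145 difference, normexp with loess turned SLC45A3 to -0.0182 and HOXB13 to 0.0208. Leaving out single arrays gave -0.0288 to 0.0707 for SLC45A3 and -3.70 to 0.94 for HOXB13. The 55 genes called became 156 with no filter and 2 to 63 without single arrays (2 without A498 si-CAV2, 786O si-CAV2 or DU145 miR-145, 20 without PC3 miR-145, and 30 without SAS or FaDu wogonin). With si-LAMB3, 0 to 1 of the 8 genes passed when single arrays were left out, KLK3 at 1.18 without the PC3 or LNCap miR-145 array (adjusted p = 0.037 and 0.0399).

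Several mean ratios over lines, none of which had passed the test, changed sign, and none passed where it did. With the mean of the other treatments subtracted for each probe, KLK3 turned to -0.55 with genistein, -0.45 with miR-145, -0.0030 with si-CAV2 and -0.12 (-0.1164) with si-GOLM1, KLK2 to -0.18 with si-CAV2, -0.26 with CXCL10 and -0.1217 with si-GOLM1, SLC45A3 to 0.077 with si-CAV2, 0.0561 with miR-27b in the renal lines and 0.13 with si-GOLM1, TMPRSS2 to -0.41 with miR-143 and -0.22 with that miR-27b, and FKBP5 to -0.0009 with wogonin. Normexp with loess turned HOXB13 to -0.24 with miR-145, and median centring turned SLC45A3 to -0.0054 and KLK2 to -0.0035 with CXCL10. Leaving out single arrays gave, with genistein, -1.44 to 0.86 for TMPRSS2, -0.26 to 1.38 for STEAP2 and -0.93 to 0.066 for SLC45A3. With miR-145 it gave -0.71 to 1.61 for HOXB13, -0.47 to 0.16 for TMPRSS2, -0.15 to 0.26 (0.255) for STEAP2 and -0.17 to 0.12 for KLK2. With si-LAMB3 the ranges were -0.77 to 0.27 for SLC45A3 and -0.27 to 0.032 for FKBP5, with si-CAV2 -0.43 to 0.69 for KLK2, with wogonin -0.29 (-0.285) to 0.84 for FKBP5, with CXCL10 -0.13 to 0.12 for STEAP2 and -0.49 to 0.51 for KLK2, and with miR-143 -0.095 to 0.082 for STEAP2. With miR-27b in the renal lines they were -0.13 to 0.59 for TMPRSS2, -0.41 to 0.034 for STEAP2 and -0.28 to 0.088 for SLC45A3.

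The number of the 8 genes past the size limit on single arrays depended most on the limit and the background correction. With a limit of 1 it was 0 for DU145 genistein, 786O si-CAV2, LNCap miR-145, DU145 and PC3 miR-143, DU145 and PC3 si-GOLM1 and A498 miR-27b, 1 for SAS and FaDu wogonin, SAS miR-29a and 786O CXCL10 at 24 h, 2 for DU145 miR-145 and PC3 miR-23b, and 3 for PC3 miR-145, FaDu miR-375, FaDu si-LAMB3 and PC3 miR-27b. With normexp and loess it was 0 for DU145 genistein, A498 and 786O si-CAV2, LNCap miR-145, SAS si-LAMB3, FaDu wogonin, DU145 miR-143, DU145 si-GOLM1, A498 miR-27b and 786O CXCL10 at 24 h, 1 for FaDu si-LAMB3, SAS wogonin and PC3 miR-143, 2 for PC3 and DU145 miR-145 and SAS miR-29a, and 3 for FaDu miR-375. Median centring gave 0 for LNCap miR-145 and 1 for 786O CXCL10 at 24 h, and the mean over measured probes gave 3 and, for CXCL10 at 12 h, 1. The causes were not tested. No paired analysis was possible because each line and treatment is 1 array with its own control and shares no replicate number across groups. On the first design, signal over background limits KLK3 in every line but LNCap, its representative probe in DU145 apart, and the second KLK2 probe in those lines. It also limits FOLH1 and HOXB13 in DU145, A498 and SAS, FOLH1 in 786O, and the other FOLH1 probe in every line but LNCap. On the second design the representative KLK3 probe was well above background in some controls of each line.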
